A study of Mus musculus with 18 samples.

Results

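Monosome RNA of mouse macrophages labelled as Mkrn2 knockouts was compared with monosome RNA of wild-type macrophages. The members are the 6 of the 18 libraries of the study that the labels call monosome RNA, 3 of the wild type (WT, mkrn2+/+) and 3 of the knockout (KO, mkrn2-/-). All 6 came from macrophages grown out of mouse bone marrow with 20 ng/ml of macrophage colony-stimulating factor for 6 days and then given 100 ng/ml of lipopolysaccharide (LPS), a bacterial cell wall component, for 8 h. Both genotypes had the LPS, so every difference below is one between LPS-treated cells. The labels give neither the allele nor the strain, age or number of the mice. Nor do they say whether replicates were separate mice or cultures, so the p-values measure the spread between these libraries, which may be technical.

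In polysome profiling, a cell lysate is spun through a density gradient that sorts mRNAs by the number of ribosomes they carry. The monosome fraction holds mRNAs with a lone ribosome, among them short, poorly initiated or newly engaged mRNAs, and the polysome fraction holds mRNAs with several. Mkrn2, makorin ring finger protein 2, is an E3 ubiquitin ligase with CCCH zinc fingers that bind RNA. LPS makes macrophages transcribe cytokine, chemokine and interferon-stimulated genes, many of whose mRNAs are also controlled by decay and by translation.

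The 6 monosome libraries held 9190034 to 12606314 counts and 14596 to 15075 genes with at least 1 count. Their replicates were more spread out than those of the other fractions, with a biological coefficient of variation of 0.221, against 0.145 in total and 0.165 in polysome RNA. The first principal component of the 6 libraries, with 23.0% of the variance, did not separate the genotypes, and on the second KO replicate 2 stood apart from the other 5. Levels are given as CPM, counts relative to the library total, scaled by the trimmed mean of M values (TMM) within a fraction. CPM of one fraction cannot be set against CPM of another, and a change in the whole amount of monosome RNA would not show in them.

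Mkrn2 RNA was lower in the KO monosome libraries but still present. It stood at 53.9, 56.0 and 57.2 CPM in the 3 WT libraries and at 39.9, 47.5 and 42.5 CPM in the 3 KO libraries. The groups did not overlap, but the log2 difference of -0.36 ± 0.09 (standard error, SE) did not pass the test (adjusted p = 0.662, edgeR's quasi-likelihood F test with Benjamini-Hochberg adjustment). Counts cover the whole gene, so an RNA that lost only its deleted part is counted too, and all directions below rest on the labels. The paralog Mkrn1, also a RING E3 ligase, stood at 149 to 173 CPM in the 6 libraries, with a log2 difference of 0.06 ± 0.09.

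Of 11239 genes tested, 10 passed an adjusted p of 0.05, a share of 0.089%. Slc25a36 was the 1 gene that rose (0.0089%), and 9 fell (0.0801%): Hk1, Aarsd1, Gas2l3, Tcf4, Vezt, Phf3, Ept1, Csnk1g1 and Sp1. At an unadjusted p of 0.05 there were 359 genes with higher (3.19%) and 350 with lower values in KO (3.11%), together 6.31% of those tested. With the same test 1 of 12313 genes passed in total RNA (0.00812%) and 8 of 12510 in polysome RNA (0.0639%). The middle 50% of the genes had log2 differences from -0.15 to 0.14, and 90 genes (0.801%) lay more than 2-fold above WT and 102 (0.908%) more than 2-fold below. Most differences in this fraction thus lay within the spread of the libraries. The 10 genes were picked by their p-values, and the limits of the single calls are given below.

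**Figure D1:**
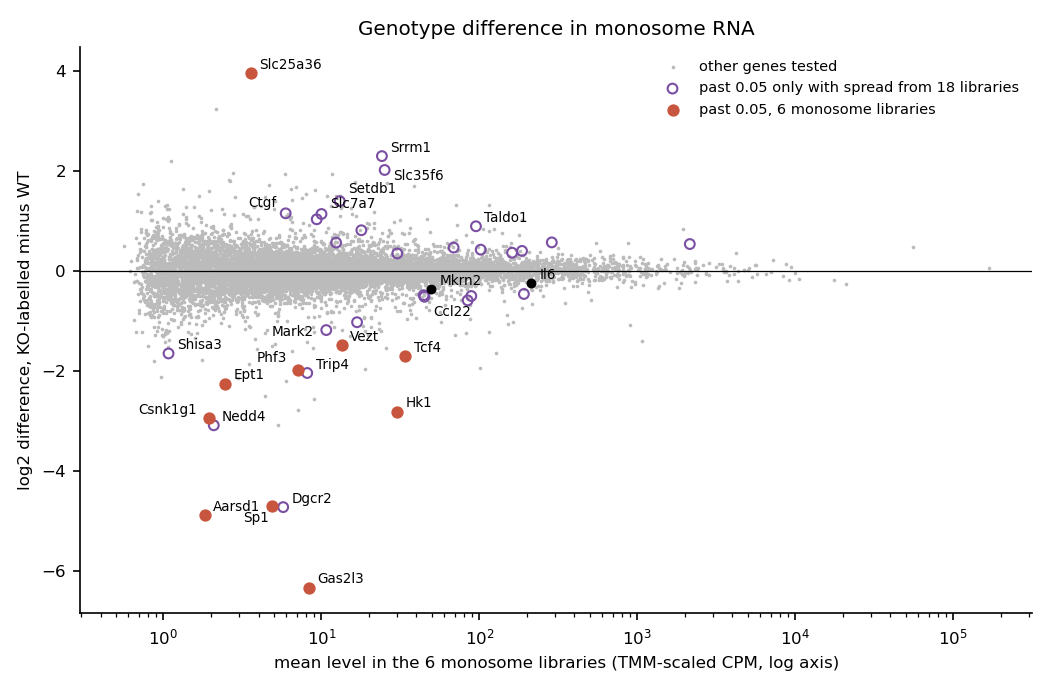
Log2 difference between KO and WT monosome RNA (vertical axis) against the mean level over the 6 monosome libraries in CPM (horizontal axis, log scale), 1 point a gene. Filled red points are the 10 genes past an adjusted p of 0.05 with the spread of the 6 monosome libraries, open circles those that passed only with the spread of all 18 libraries, and black points Mkrn2 and Il6. Slc25a36 is the red point above 0 and the other 9 lie below.

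Hexokinase 1 showed the smallest p of all. Hk1 (ENSMUSG00000037012, chromosome 10, 62268855 to 62379908, minus strand) encodes the enzyme that phosphorylates glucose at the first step of glycolysis and sits on the outer mitochondrial membrane. It stood at 53.1, 52.4 and 53.6 CPM in WT and at 8.06, 6.77 and 7.77 CPM in KO, from 512 to 647 counts and 82 to 97 counts. The 3 KO libraries lay together far below the 3 WT libraries, and the fall was 7.03-fold (log2 difference -2.81 ± 0.11, adjusted p = 0.000231 by edgeR's quasi-likelihood test). In total RNA the same gene stood at 164 to 179 CPM in WT and 138 to 156 in KO, and in polysome RNA at 136 to 138 and 110 to 118 CPM, log2 differences of -0.22 ± 0.08 and -0.26 ± 0.06. The monosome difference minus that in total RNA was -2.60 ± 0.12 and minus that in polysome RNA -2.56 ± 0.11 on the log2 scale, with adjusted p of 1.6e-06 and 6.81e-07 for these interaction terms in edgeR. The antisense gene Hk1os, which overlaps Hk1, held 11 to 15 counts in WT and 13 to 21 in KO.

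No other glycolysis gene passed. Of 21 tested genes of the glycolysis list, Hk1 was the 1 that passed, 14 had negative and 7 positive differences, and the median was -0.08, beside 0.00 over all tested genes. Hk2 and Hk3, the other hexokinases of the list, had log2 differences of -0.11 ± 0.12 and -0.19 ± 0.20, and Hk2 is the hexokinase that LPS is known to induce in macrophages. The lactate dehydrogenase gene Ldha (-0.05 ± 0.07), the pyruvate kinase gene Pkm (0.06 ± 0.08) and the phosphoglycerate kinase gene Pgk1 (0.00 ± 0.07) lay close to 0.

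Phf3, Tcf4 and Vezt also fell, and for each of them the difference from at least 1 other fraction passed. Phf3 (ENSMUSG00000048874, chromosome 1, 30802339 to 30873921, minus strand) encodes a protein that binds RNA polymerase II. It stood at 13.4, 11.0 and 9.88 CPM in WT and at 3.32, 2.97 and 2.32 CPM in KO, a 3.96-fold fall (log2 difference -1.99 ± 0.20, adjusted p = 0.0249, edgeR). Its total and polysome differences were 0.02 ± 0.09 and 0.10 ± 0.10, and both interaction terms passed (adjusted p = 0.00132 and 0.00218, edgeR). The groups of this gene overlap in total and in polysome RNA and are apart in monosome RNA.

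Tcf4 (ENSMUSG00000053477, chromosome 18, 69343356 to 69689079, plus strand) encodes E2-2, a basic helix-loop-helix transcription factor of plasmacytoid dendritic cells and other lineages. It fell 3.24-fold, from 45.7, 50.6 and 59.8 CPM in WT to 14.6, 14.8 and 18.8 CPM in KO (log2 difference -1.69 ± 0.15, adjusted p = 0.017, edgeR). The difference from total RNA passed (adjusted p = 0.00195) and that from polysome RNA did not (adjusted p = 1, edgeR): polysome libraries ran from 82.3 to 145 CPM in WT and from 61.8 to 152 in KO. Vezt (ENSMUSG00000036099, chromosome 10, 93939165 to 94035817, minus strand) encodes vezatin, a protein of adherens junctions. It fell 2.78-fold, from 19.5, 22.4 and 17.3 CPM to 6.73, 7.10 and 7.45 CPM (log2 difference -1.48 ± 0.14, adjusted p = 0.0244, edgeR). Here the difference from polysome RNA passed (adjusted p = 0.0347) and that from total RNA did not (adjusted p = 1, edgeR). These calls were close to the threshold. Without WT replicate 3, KO replicate 1 or KO replicate 2 the adjusted p of Tcf4 was 0.0504 to 0.0585, without any 1 of the 3 KO replicates that of Vezt was 0.0796 to 0.0811, and without any library but WT replicate 1 that of Phf3 was 0.0584 to 0.085 (edgeR).

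Trip4, which encodes a subunit of a complex that takes apart collided ribosomes in human cells, had like values but did not pass with the monosome libraries alone. Trip4 (ENSMUSG00000032386, chromosome 9, 65828930 to 65908794, minus strand) stood at 17.0, 8.75 and 13.6 CPM in WT and at 3.24, 3.14 and 3.12 CPM in KO. The log2 difference was -2.04 ± 0.26 (adjusted p = 0.0707, edgeR). In total RNA the difference was 0.03 ± 0.13 and in polysome RNA -0.05 ± 0.10, and both interaction terms passed (adjusted p = 0.0188 and 0.0347, edgeR).

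**Figure D2:**
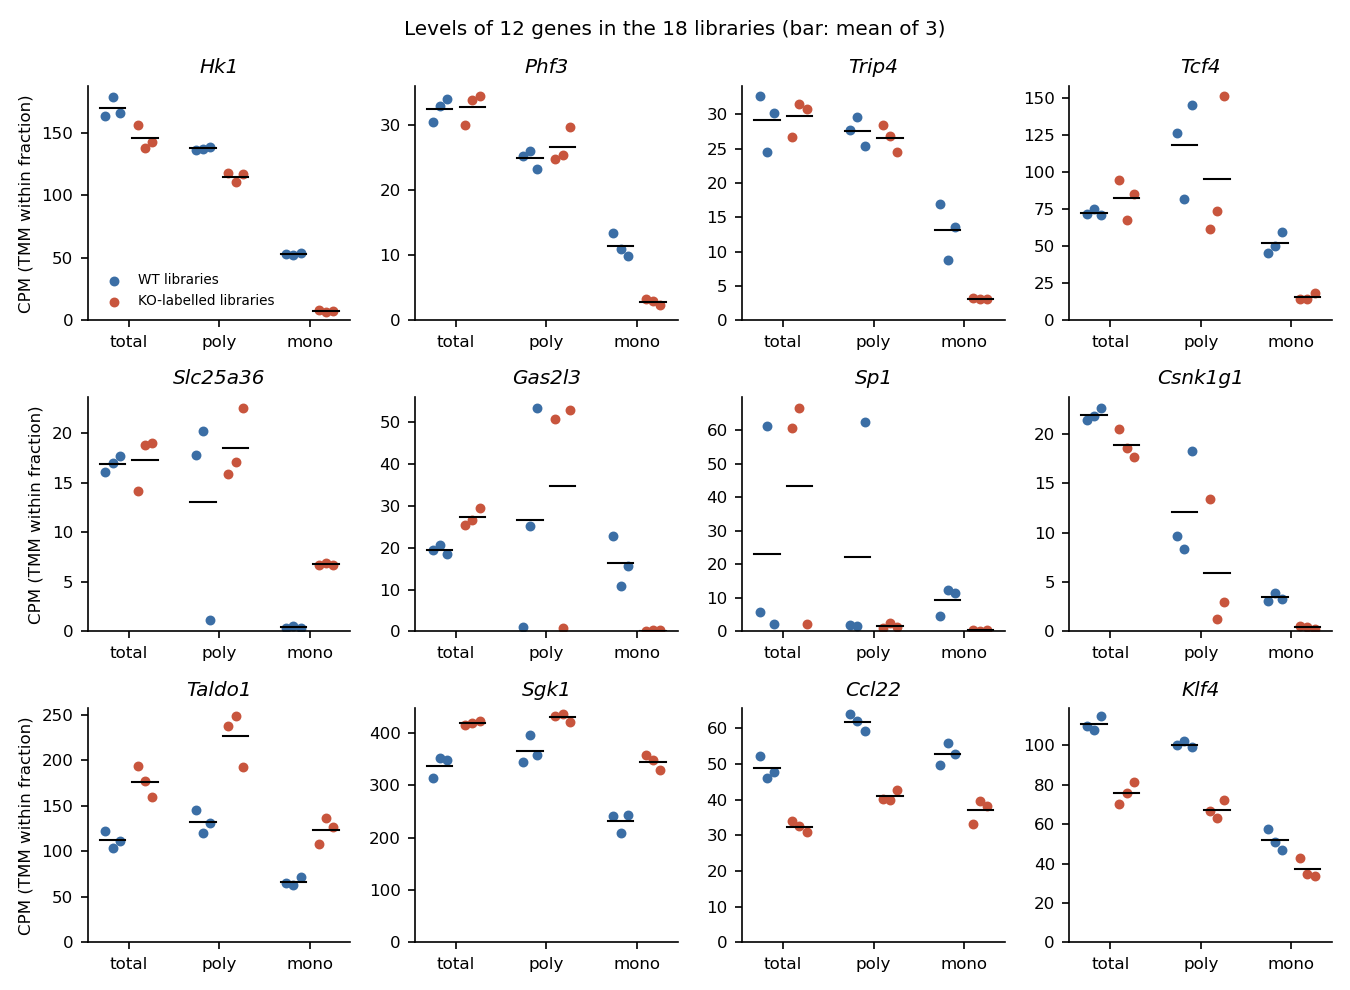
CPM of 12 genes in all 18 libraries by fraction (vertical axes from 0; CPM scaled by TMM within a fraction), blue for WT and red for KO, with a bar at the mean of 3. Hk1, Phf3 and Trip4 are separated by genotype in monosome RNA with tight total and polysome replicates. Slc25a36, Gas2l3, Sp1 and Csnk1g1 have replicates of at least 1 group at distant levels in other fractions. Taldo1, Sgk1, Ccl22 and Klf4 differ the same way in all 3 fractions.

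The 1 gene that rose was Slc25a36 (ENSMUSG00000032449, chromosome 9, 97074961 to 97111157, minus strand), which encodes a mitochondrial carrier of pyrimidine nucleotides. Its counts were 3, 7 and 4 in WT and 80, 84 and 84 in KO, a ratio of 16.02 (95% interval 9.37 to 29.7, counting error only). The log2 difference was 3.97 ± 0.23 (adjusted p = 0.00237, edgeR), and it exceeded that in total RNA by 3.95 ± 0.27 (adjusted p = 2.14e-05, edgeR). In total RNA all 6 libraries held 182 to 314 counts. In polysome RNA WT replicate 3 held 17 counts, against 252 and 311 in the other WT libraries and 218 to 355 in KO. With the spread of all 18 libraries the gene did not pass (adjusted p = 0.063, edgeR).

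Gas2l3 and Aarsd1 were nearly absent from the KO monosome libraries. They were the only tested genes with at most 3 counts in each KO library and at least 20 in each WT library, and no gene showed the reverse. Gas2l3 (ENSMUSG00000074802, chromosome 10, 89408823 to 89443967, minus strand) encodes a protein that links actin to microtubules in cell division. It held 219, 135 and 173 counts in WT and 1, 3 and 3 in KO, a ratio of 0.012 (0.00481 to 0.0249; adjusted p = 0.00364, edgeR). Total RNA held 220 to 253 counts in WT and 334 to 446 in KO, with no library near 0. Polysome RNA held 14, 388 and 770 counts in WT and 784, 10 and 833 in KO, so that 1 library of each genotype was low there. Gas2l3 did not pass with the spread of all 18 libraries (adjusted p = 0.117, edgeR) or with voom (adjusted p = 0.0708).

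Aarsd1 (ENSMUSG00000075528, chromosome 11, 101406839 to 101417615, minus strand) encodes a protein that clears tRNAs charged with the wrong amino acid. It held 37, 40 and 40 counts in WT and 2, 1 and 1 in KO, a ratio of 0.0309 (0.00829 to 0.0813; adjusted p = 0.00364, edgeR). Another annotated gene on the same strand, Gm27029 (chromosome 11, 101406664 to 101424796), shares 1250 of the 3052 exonic bases of Aarsd1. Gm27029 held 8, 3 and 2 counts in WT and 38, 51 and 53 in KO. Summed over both genes the libraries held 45, 43 and 42 counts in WT and 40, 52 and 54 in KO, a ratio of 1.02 (0.796 to 1.3). With Ptges3l, which also overlaps on the same strand, added to the sum, the log2 difference in edgeR was -0.08 (adjusted p = 0.937). Neither sum showed the fall. How reads of the shared exons were divided between the genes was not tested. Dgcr2, which passed only with the spread of all 18 libraries, has a like partner in Gm20518. Dgcr2 held 88, 144 and 138 counts in WT and 0, 0 and 15 in KO, and its sum with Gm20518 was 88, 146 and 138 against 22, 26 and 18, a ratio of 0.16 (0.122 to 0.209). Of all tested genes 11.0% overlap another on the same strand, and of the 10 genes called 2 do.

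Ept1, Csnk1g1 and Sp1 fell from low counts. Ept1 (ENSMUSG00000075703, chromosome 5, 30232581 to 30272427, plus strand), whose product makes phosphatidylethanolamine, held 40, 53 and 42 counts in WT and 8, 13 and 10 in KO, a ratio of 0.208 (0.136 to 0.309; adjusted p = 0.0268, edgeR). Csnk1g1 (ENSMUSG00000032384, chromosome 9, 65908924 to 66045015, plus strand), a membrane-bound casein kinase 1, held 30, 48 and 37 counts in WT and 7, 6 and 3 in KO, a ratio of 0.126 (0.0696 to 0.213; adjusted p = 0.0289, edgeR). Sp1 (ENSMUSG00000001280, chromosome 15, 102406143 to 102436404, plus strand), a transcription factor of GC-rich promoters, held 43, 153 and 127 counts in WT and 4, 3 and 6 in KO, a ratio of 0.0364 (0.0192 to 0.0631; adjusted p = 0.0322, edgeR). The 3 genes were apart by genotype in monosome RNA, and none of the 3 was so in polysome RNA. Csnk1g1 was also apart in total RNA, at 21.4 to 22.6 CPM in WT and 17.7 to 20.5 in KO, while Ept1 and Sp1 overlapped there. In total RNA Sp1 held 67, 755 and 30 counts in WT and 795, 1112 and 30 in KO, and in polysome RNA 27, 26 and 903 counts in WT and 15, 31 and 23 in KO, so that its replicates sat at a high or a low level within a genotype. The adjusted p of these 3 genes rose above 0.05 when libraries were left out singly, to at most 0.0996 for Ept1, 0.113 for Csnk1g1 and 0.153 for Sp1 (edgeR): for Ept1 without any library but KO replicate 2, for Csnk1g1 without any, and for Sp1 without any but WT replicate 1.

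Replicates at distant levels were counted over all genes, a measure chosen after the values were seen. A gap of at least 4-fold between the highest and lowest replicate of 1 total or polysome group (of a mean of at least 20 counts) was found in 283 of 10969 tested genes, or 2.58%. Of the 10 called genes 5 had one: Slc25a36, Gas2l3, Sp1, Csnk1g1 and Ept1. Within the monosome groups such a gap was found in 2.69% of genes in WT and 2.70% in KO. Its part in the calls was not tested. The other 5 called genes, Hk1, Aarsd1, Tcf4, Vezt and Phf3, were also called with the spread of all 18 libraries, which takes in those gaps by its construction.

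With the spread of all 18 libraries, 32 of 12782 genes passed in monosome RNA (0.25%), 16 higher and 16 lower in KO (0.125% each). That spread comes mostly from total and polysome libraries, whose replicates lay closer together, so those p-values may be too small for the monosome libraries. Among genes higher in KO by that test was Taldo1 (ENSMUSG00000025503, chromosome 7, 141392199 to 141402968, plus strand), transaldolase of the pentose phosphate pathway. It stood at 65.1, 62.6 and 71.6 CPM in WT and at 108, 136 and 127 CPM in KO, 1.86-fold, with an adjusted p of 0.0707 from the 6 monosome libraries and of 0.0022 from all 18 (edgeR). Sgk1, a kinase induced by serum and glucocorticoids, stood at 209 to 243 CPM in WT and 328 to 357 in KO (adjusted p = 0.233 and 0.000781). Slc7a7, a subunit of a carrier that exports cationic amino acids, stood at 4.98 to 8.02 and 12.8 to 14.9 CPM (adjusted p = 0.345 and 0.00697). Etf1, the release factor that reads stop codons, stood at 81.5 to 89.9 and 114 to 122 CPM (adjusted p = 0.455 and 0.00697). Every KO library lay above every WT library in each of these 4 genes. The rule that picked them required this, so it adds nothing to the p-values.

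Among genes lower in KO by the 18-library test were Kpna6, an importin alpha of nuclear import, at 20.7 to 23.6 CPM in WT and 9.16 to 13.7 in KO, and Klf4, a transcription factor of macrophage differentiation, at 47.0 to 57.5 and 33.6 to 42.6 CPM. Srrm1, a splicing coactivator, was high in 2 of the 3 KO libraries: its counts were 83, 105 and 81 in WT and 635, 671 and 155 in KO. Slc35f6 held 181, 80 and 52 counts in WT and 543, 481 and 451 in KO. With the 6 monosome libraries the adjusted p of these 4 genes was 0.345 for Kpna6, 0.662 for Klf4, 0.656 for Srrm1 and 0.662 for Slc35f6 (edgeR). Srrm1 passed without KO replicate 3 (adjusted p = 0.00181) and Slc35f6 without WT replicate 1 (adjusted p = 0.00871), the libraries nearest to the other group.

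No gene of the LPS response lists passed with the 6 monosome libraries, and with the spread of all 18 libraries 2 chemokines did, Ccl22 and Ccl6. The 24 listed LPS-induced cytokines and 20 chemokines together took 5.33 ± 0.279% of the monosome counts in WT and 5.26 ± 0.154% in KO (mean ± SD, n = 3, exact permutation test, two-sided, p = 0.6, where 0.1 is the smallest p that 3 against 3 allows). Chemokines made up most of that share, with summed levels of 41578 to 44118 CPM in WT and 40947 to 43044 in KO. The cytokines alone summed to 9366 to 9988 CPM in WT and 10784 to 11947 in KO, without overlap. The separate sums were not tested. Of 23 tested cytokines 14 had positive and 9 negative differences with a median of 0.10, and of 19 chemokines 10 and 9 with a median of 0.00. The share of genes without overlap between genotypes was 12.6% over all tested genes (6.36% with KO above WT, 6.22% below), and 6 cytokines lay above and 3 below, as did 7 and 5 chemokines.

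Il6, the gene of a cytokine that drives fever and the acute phase, stood at 216, 251 and 222 CPM in WT and at 201, 187 and 197 CPM in KO monosome RNA. The KO libraries lay below the WT libraries without overlap, with a log2 difference of -0.24 ± 0.09 (adjusted p = 0.771, edgeR). In polysome RNA the difference had the opposite sign, 0.90 ± 0.19, with 80.5 to 83.9 CPM in WT and 108 to 191 in KO. The difference between the 2 fractions, -1.14 ± 0.22, did not pass (adjusted p = 0.327, edgeR).

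Ccl22, whose product recruits T cells that carry the receptor CCR4, stood at 49.9, 55.8 and 52.9 CPM in WT and at 33.2, 39.5 and 38.3 CPM in KO (log2 difference -0.51 ± 0.10, adjusted p = 0.487 from the 6 monosome libraries and 0.011 from all 18, edgeR). Ccl6, a chemokine of myeloid cells, stood at 1522 to 1887 CPM in WT and 2437 to 2733 in KO (0.54 ± 0.11, adjusted p = 0.49 and 0.0203). The granulocyte growth factor gene Csf3 stood at 47.6 to 55.2 and 67.2 to 85.8 CPM (0.56 ± 0.12), the neutrophil chemokine gene Cxcl1 at 90.1 to 105 and 121 to 154 CPM (0.45 ± 0.12), and Il1a, the gene of interleukin 1 alpha, at 3479 to 3998 and 4401 to 5414 CPM (0.37 ± 0.11). These last 3 also lay above WT without overlap and did not pass (adjusted p = 0.586, 0.662 and 0.731, edgeR). Tnf had a difference of 0.16 ± 0.12 and Il1b of 0.19 ± 0.12.

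Interferon-stimulated genes took 3.95 ± 0.178% of the counts in WT and 3.79 ± 0.155% in KO (n = 3, exact permutation test, two-sided, p = 0.4). Of 35 tested, 18 had positive and 17 negative differences with a median of 0.01. Without overlap 2 lay above and 3 below WT, beside 6.36% and 6.22% of all tested genes. NF-kB subunits and feedback inhibitors had 12 positive and 10 negative of 22 with a median of 0.01, and proteins that bind or degrade cytokine mRNAs 9 and 9 of 18 with a median of 0.02. The suppressor of cytokine signalling Socs3 stood at 128 to 129 CPM in WT and 103 to 117 in KO (-0.20 ± 0.08). The transcription factor gene Irf1 stood at 92.9 to 115 and 88.3 to 92.6 CPM (-0.23 ± 0.10, both adjusted p = 0.771, edgeR). Both lay below WT without overlap.

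Genes of the antioxidant factor NRF2 lay mostly above WT, although none passed with the 6 monosome libraries. NRF2, encoded by Nfe2l2, binds antioxidant response elements with small MAF proteins and switches on genes for glutathione, thioredoxin and NADPH supply. Of 22 tested genes of the list 19 had positive differences with a median of 0.17, beside 0.00 over all genes, and 8 lay above WT without overlap and 0 below, beside 6.36% and 6.22% of all genes. The medians of the same list were 0.08 in total and 0.14 in polysome RNA. The largest difference was that of Taldo1, given above. Slc7a11, the cystine carrier for glutathione synthesis, stood at 20.8, 21.1 and 20.4 CPM in WT and at 28.5, 30.3 and 26.3 CPM in KO (log2 difference 0.45 ± 0.10, adjusted p = 0.662, edgeR). Txn1, thioredoxin, stood at 534 to 614 and 643 to 686 CPM (0.23 ± 0.08, adjusted p = 0.771). The groups did not overlap in either gene. Txnrd1, thioredoxin reductase (0.22 ± 0.11), Srxn1, sulfiredoxin (0.21 ± 0.10), and Nfe2l2 itself (0.22 ± 0.09) lay above WT without overlap as well, while Me1, malic enzyme (-0.35 ± 0.21), and Gclm, the regulatory subunit of glutathione synthesis (-0.15 ± 0.16), lay on the other side.

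The promoters of these genes were searched for the core of the antioxidant response element, TGACNNNGC on either strand, within 250 bases before and 50 after the start given by RefSeq (GRCm38.p6). At least 1 window held the motif in 9 of the 19 listed genes that have one (47.4%), against 14% of 27025 genes in all. Counted by window, it was in 9 of 26 (34.6%), against 12.4% of 32851. The list was written as NRF2 genes, so these shares describe the list and say nothing about KO against WT. In the matches of Prdx1 and Me1, and in no other of the list, the letters also hold TGACTCA, the site of the factor AP-1. The windows of 5 genes are shown, 5′ to 3′ along the gene, with the match in capitals, to set genes whose values were higher in KO beside Me1, whose values were not. Whether NRF2 binds at these letters in these cells was not measured, and the Taldo1 window held no match.
Prdx1 (chr4:116685456-116685484, plus strand): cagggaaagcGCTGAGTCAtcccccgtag
Txnrd1 (chr10:82859104-82859132, plus strand): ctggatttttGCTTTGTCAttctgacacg
Srxn1 (chr2:152105542-152105570, plus strand): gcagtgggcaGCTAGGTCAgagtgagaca
Nfe2l2 (chr2:75704885-75704913, minus strand): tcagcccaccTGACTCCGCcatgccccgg
Me1 (chr9:86695902-86695930, minus strand): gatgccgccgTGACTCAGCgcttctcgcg
The search itself fixed the letters that these stretches share. Prdx1 had a monosome difference of 0.24 ± 0.12. Gclm, which also had a match, lay below WT like Me1. G6pdx, Pgd and Sod1 had a match too, and neither their windows nor that of Gclm are shown. The 5 windows were picked by these values, so they do not tell whether a match goes with higher values in KO.

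Of genes of the translation machinery none passed with the 6 monosome libraries, and Etf1, given above, did with all 18. Cytosolic ribosomal protein genes took 4.45 ± 0.28% of the counts in WT and 4.32 ± 0.371% in KO (n = 3, exact permutation test, two-sided, p = 0.6), and 51 of 83 tested had positive differences with a median of 0.04. Initiation factors had 28 positive of 52 with a median of 0.03, elongation and release factors 7 of 12 with a median of 0.05, and aminoacyl-tRNA synthetases 9 of 22 with a median of -0.03. Genes of the integrated stress response, which rise when initiation factor eIF2 is phosphorylated, had 16 positive of 23 with a median of 0.13, and medians of 0.13 in total and in polysome RNA. Atf4, the main transcription factor of that response, had a difference of 0.15 ± 0.10. Amino acid and solute carriers had 12 positive of 15 with a median of 0.13. The arginine and lysine carrier gene Slc7a1 stood at 4.94 to 5.60 CPM in WT and 6.77 to 7.61 in KO (0.47 ± 0.14, adjusted p = 0.731, edgeR).

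Mitochondrially encoded mRNAs, which mitochondrial ribosomes translate, took 4.29 ± 0.61% of the monosome counts in WT and 3.89 ± 0.436% in KO (n = 3, exact permutation test, two-sided, p = 0.4). Of 13 tested, 10 had negative differences with a median of -0.05, and in total RNA the median was -0.19. Fth1, ferritin heavy chain, whose mRNA is held back from translation when iron is scarce, took 16.6 ± 0.419% of the counts in WT and 16.9 ± 1.65% in KO (n = 3, exact permutation test, two-sided, p = 0.7). Ftl1, ferritin light chain, had a difference of 0.49 ± 0.31, with groups that overlapped. Tfrc, the transferrin receptor gene whose mRNA iron destabilises, stood at 31.1 to 35.2 CPM in WT and 36.2 to 39.2 in KO (0.19 ± 0.09, adjusted p = 0.783, edgeR).

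**Figure D3:**
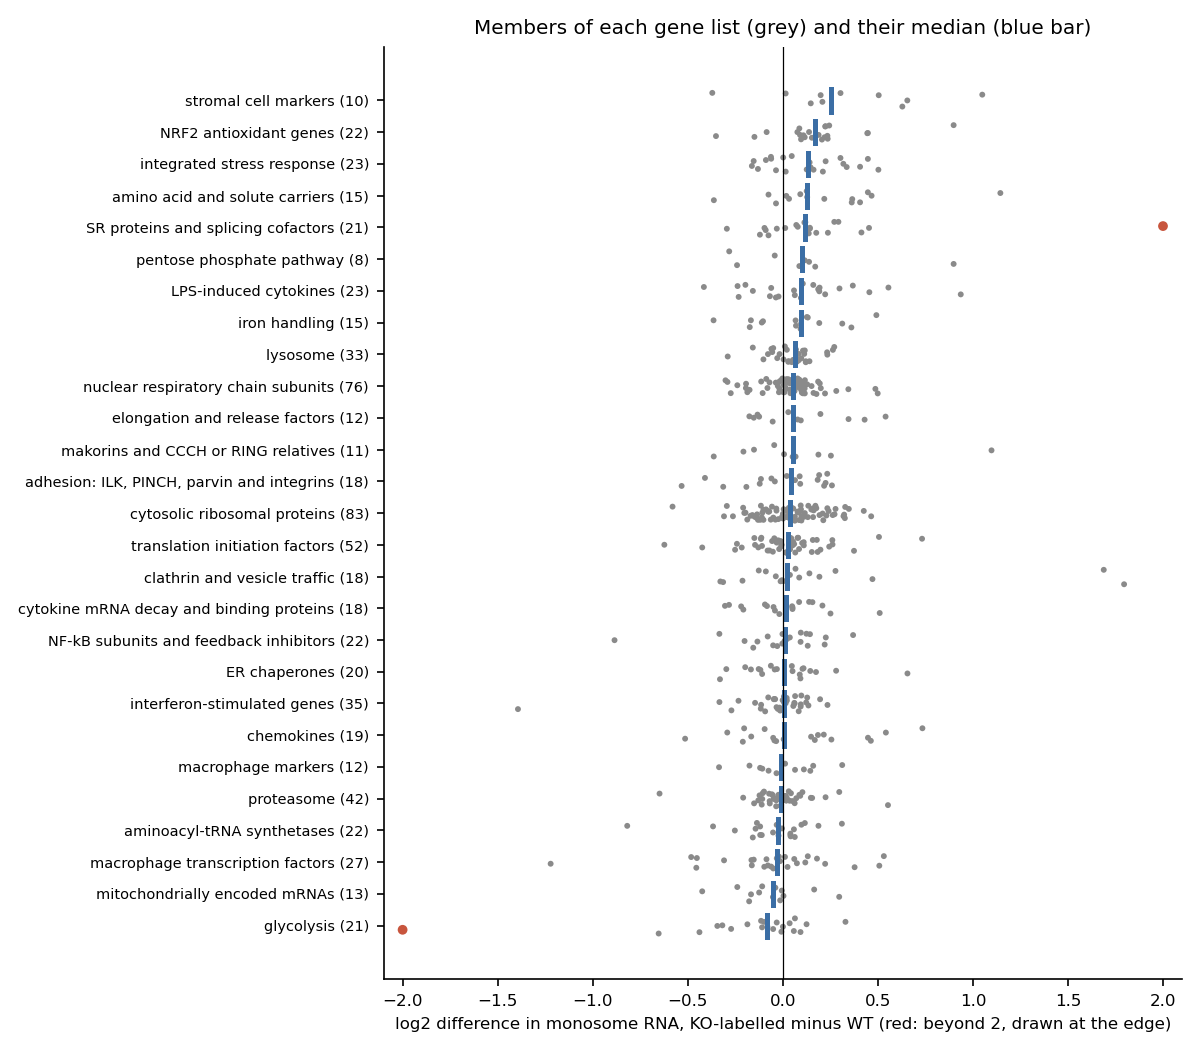
Log2 differences between KO and WT monosome RNA (horizontal axis) of the tested members of each gene list (grey points, number in brackets) with the median of the list (blue bar), ordered by median. Red points are Srrm1 and Hk1, drawn at the edge. Among the lists drawn, which leave out marker lists other than stromal and macrophage, stromal markers and NRF2 genes have the highest medians, at 0.26 and 0.17, and glycolysis the lowest at -0.08.

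Markers of macrophages showed no common shift, with 6 positive and 6 negative of 12, a median of -0.01 and summed levels of 6362 to 7152 CPM in WT and 6081 to 7164 in KO. Stromal cell markers, such as the collagens, had 9 positive of 10 with a median of 0.26 and a lowest difference of -0.37. Without overlap 4 lay above WT and 0 below, beside 6.36% and 6.22% of all tested genes. Their summed level was 230.0 to 282 CPM in WT and 289 to 312 in KO, and the medians in total and polysome RNA were 0.31 and 0.46. Col3a1, type III collagen, stood at 2.07, 2.92 and 2.79 CPM in WT and at 4.74, 6.19 and 5.29 CPM in KO (log2 difference 1.05 ± 0.20, adjusted p = 0.474, edgeR). In bulk samples more cells of a type and more RNA per cell cannot be told apart. The part of stromal RNA in other results was not tested. Of the other marker lists, no tested member passed: 4 of 8 dendritic, 5 of 7 osteoclast, 2 of 8 neutrophil, 4 of 7 B cell and 1 of 5 megakaryocyte markers were tested, and none of the T or NK cell, mast cell and erythroid markers. Markers at 0 counts in all 6 libraries included S100a9, Ly6g and Retnlg of neutrophils and Klrb1c of NK cells. The globin genes Hba-a1, Hbb-bs and Hbb-bt of erythroid cells were at 0 as well. So were Calcr of osteoclasts and Gp9 of megakaryocytes, but the other members of their lists were not. Osteoclast markers summed to 1980 to 2287 CPM in WT and 1902 to 2125 in KO. Megakaryocyte markers summed to 8.29 to 9.31 and 8.33 to 9.14 CPM, and neutrophil markers to 4.87 to 6.83 and 7.61 to 9.39 CPM.

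The genotype difference in monosome RNA was set beside that in the other 2 fractions of the same study, whose libraries are separate. The labels do not say whether the 3 fractions came from the same cultures. Of 704 genes with every KO monosome library above every WT library, 134 (19.0%) also lay above in total RNA and 19 lay below. Over all 11061 genes, 6.55% lay above and 7.41% below in total RNA. In polysome RNA 167 (23.7%) lay above and 17 below, against 8.36% and 7.47% of all genes. Of 685 genes below WT in monosome RNA, 138 (20.1%) also lay below in total RNA and 12 above, and in polysome RNA 141 (20.6%) lay below and 13 above. In all 3 fractions 84 genes lay above (0.759% of 11061) and 66 below (0.597%).

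Some of the genes named above had differences of like size in every fraction. Taldo1 had log2 differences of 0.65 ± 0.10 in total, 0.78 ± 0.12 in polysome and 0.90 ± 0.11 in monosome RNA. Ccl22 had -0.59 ± 0.09, -0.59 ± 0.07 and -0.51 ± 0.10, and Klf4 -0.55 ± 0.08, -0.57 ± 0.07 and -0.48 ± 0.13. Slc7a11 had 0.57 ± 0.13, 0.60 ± 0.12 and 0.45 ± 0.10. In these 4 genes KO and WT libraries did not overlap in any fraction, and no interaction term passed (adjusted p = 1 in each, edgeR). Ctgf, a matricellular growth factor, had 0.69, 0.76 and 1.16 ± 0.21 in monosome RNA, from 3.69 ± 0.95 CPM in WT to 8.2 ± 0.593 in KO (mean ± SD, n = 3).

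Of the 10 called genes, 3 had the same sign in all 3 fractions. The share over all genes was not counted, so this does not set the called genes apart. The difference between the monosome and total effects passed in 11 of 12513 genes (0.0879%), 3 higher (0.024%) and 8 lower (0.0639%). They were Hk1, Slc25a36, Aarsd1, Gas2l3, Tcf4, Phf3 and Csnk1g1 of the called genes, Trip4, and 3 genes whose difference lay in total RNA. Those 3 were named after their values were seen: Rnf13 had a monosome difference of 0.12 ± 0.11, Rsu1 of 0.02 ± 0.09 and Gm28037 of -0.54 ± 0.41. The difference between the monosome and polysome effects passed in 7 of 12494 genes (0.056%), all lower: Hk1, Aarsd1, Vezt, Phf3, Trip4, and Zbtb42 and Gm20716, whose monosome differences were 0.32 ± 0.21 and -0.07 ± 0.08. Hk1, Aarsd1, Phf3 and Trip4 passed against both fractions.

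**Figure D4:**
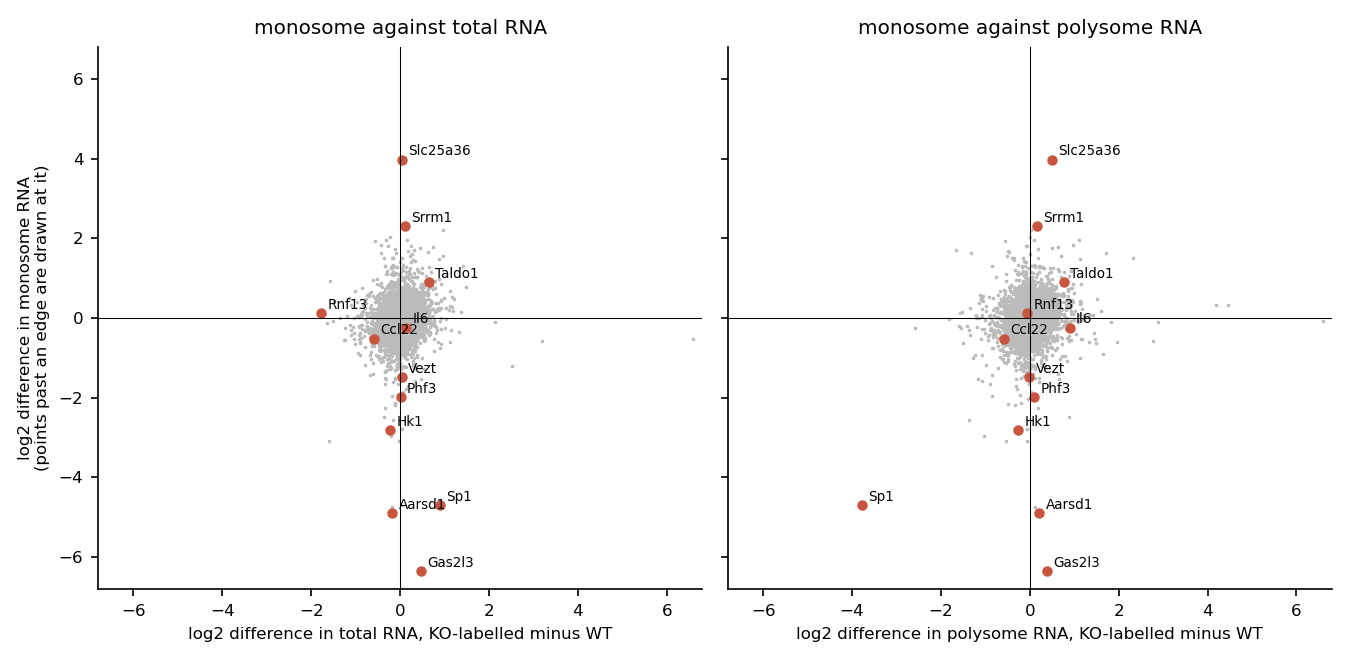
Log2 difference between KO and WT in monosome RNA (vertical axes) against that in total RNA (left) and polysome RNA (right), 1 point a gene, with points past an edge drawn at it. Phf3 and Vezt lie close to the vertical line at 0 in both panels, Hk1 lies slightly to its left in both, at -0.22 and -0.26, and Slc25a36 lies close to it for total RNA and at 0.50 for polysome RNA, while Taldo1 and Ccl22 lie off both lines on the same side in both panels.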

How the data were processed

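Libraries were made with a SMARTer mRNA kit, per the labels' protocols, from monosome, polysome and whole-cell RNA. The table that the authors deposited gives, for 34745 genes, the raw count in each library and an FPKM value, and only the counts were used. Tools named without a role in the submitters' processing notes are HISAT2 2.0.4, StringTie 1.3.0 and fastp 0.23.2. The genome build and strand setting are not given in the sources used here. Positions are those of the table. Of 34267 genes found in GENCODE M21 (GRCm38), 80.8% had the same position.

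Monosome counts were kept by filterByExpr (11239 genes), scaled by TMM and tested with edgeR 4.0.16 (quasi-likelihood F test, two-sided) in R 4.3.3 over the 6 monosome libraries, with Benjamini-Hochberg adjustment over all tested genes and a threshold of 0.05. Total and polysome RNA had their own fits of 6 libraries each, and differences between fractions were interaction terms over 12. Errors of log2 values are standard errors. Shares were tested by exact permutation of the libraries. Intervals are exact, at 95%, and hold only the error of counting; without molecular identifiers, reads may be copies of 1 molecule.

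The rule for named genes took Mkrn2, Mkrn1 and Il6, every called gene, up to 12 genes each way called with all 18 libraries, at or above the median level and without overlap, the 3 genes of smallest p in each list, and the 6 most abundant genes. Others are named as examples of their lists or for a count they belong to. The members, lists and rules were chosen with earlier results of these data known. The tests were tried on simulated counts. Alternatives were RLE factors, no scaling, no filter, a mean of at least 5 CPM, all 18 libraries, the replicate number as a block, a robust prior, voom (limma 3.58.1), DESeq2 1.42.0, leaving out each library, and, added after the data were seen, summing genes that overlap on the same strand. Python 3.11.15 and matplotlib 3.10.9 drew the figures.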

Additional observations from a re-analysis of the deposited data

Results flagged for a closer look

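For 8 of the genes named by rule or called with all 18 libraries, the difference between KO and WT was tested to be unlike that in total RNA, by an interaction term over 12 libraries in edgeR. The monosome log2 difference minus the total log2 difference was -2.60 for Hk1, 3.95 for Slc25a36, -4.77 for Aarsd1, -6.85 for Gas2l3, -1.88 for Tcf4, -2.01 for Phf3, -2.75 for Csnk1g1 and -2.07 for Trip4. Against polysome RNA the same term passed for 5 of these named genes. The monosome difference minus the polysome difference was -2.56 for Hk1, -5.15 for Aarsd1, -1.47 for Vezt, -2.09 for Phf3 and -1.99 for Trip4. The Aarsd1 values are those before its counts were summed with Gm27029. Polysome replicates of Gas2l3, Slc25a36 and Csnk1g1 lay far apart within a genotype, and no term against polysome RNA passed for these 3 genes.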

How the results depend on the processing

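The 10 calls in monosome RNA were also 10 with RLE factors, with no scaling and with overlapping genes summed (9 shared loci), and 13 with no filter or a robust prior. They were 5 with a mean of at least 5 CPM, 6 with voom, 29 with DESeq2 and 32 with all 18 libraries, and 8 to 22 with 1 library left out (22 without WT replicate 1 and 16 without WT replicate 2). Hk1 passed under every alternative, and Slc25a36, Gas2l3 and Aarsd1 passed with any 1 library left out. With all 18 libraries Slc25a36 (adjusted p = 0.063) and Gas2l3 (0.117) did not pass, nor did Gas2l3 with voom (0.0708). The monosome minus total term was called in 11 genes, in 7 with all 18 libraries and in 15 to 26 with 1 library left out, and the monosome minus polysome term in 7 genes and in 9 to 19. Of the values of single genes under the alternatives, 1514 kept their sign and side of the threshold, 45 were no longer past it and 29 came past it. The sign turned for 1, Ccl3, from -0.04 to 0.030 without WT replicate 1, and the lowest with 1 library left out was -0.085 without WT replicate 2. No share of a gene class moved by more than 1 SD. When replicate numbers were added as a block, 2 genes were called. The numbers are not known to pair the libraries: deviations of same-numbered WT and KO libraries correlated at 0.0964, 0.0233 and 0.0365 across genes. The libraries limit low genes most: at the levels of Aarsd1, Csnk1g1 and Ept1 a few reads set the KO values.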

Other observations

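Several groups of housekeeping mRNAs were measured in monosome RNA without a member past the test of the 6 monosome libraries. With the spread of all 18, Srrm1 passed, and so did Cltc, the clathrin heavy chain gene, at 50.2 to 65.1 CPM in WT and 72.8 to 87.2 in KO (adjusted p = 0.662 and 0.031, edgeR). Nuclear subunits of the respiratory chain had 55 positive differences of 76 with a median of 0.05, with Ndufv2 of complex I at 0.49 ± 0.10 (adjusted p = 0.548, edgeR). Lysosomal genes had 24 positive of 33 with a median of 0.06, with the protease genes Lgmn at 0.27 ± 0.11 and Ctsh at -0.29 ± 0.09. Proteasome genes had 19 of 42 with a median of -0.01, and chaperones of the endoplasmic reticulum 10 of 20 with a median of 0.01. SR proteins and splicing cofactors had 15 of 21 with a median of 0.12. Without overlap 5 of them lay above WT and 0 below, beside 6.36% and 6.22% of all tested genes. Among the 5 were Srrm1 and Hnrnpa1, a splicing repressor, at 13.0 to 16.4 CPM in WT and 18.6 to 21.5 in KO. Clathrin and vesicle traffic genes had 10 of 18 with a median of 0.02, and adhesion genes 10 of 18 with a median of 0.04. The makorins and their relatives had 7 of 11 with a median of 0.05, and pentose phosphate pathway genes 5 of 8 with a median of 0.10. Genes of iron handling had 10 of 15 with a median of 0.09.

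Macrophage transcription factors had 11 positive of 27 with a median of -0.03. Of these genes 3 lay below WT without overlap and 1 above, beside 6.22% and 6.36% of all tested genes. The 3 were Klf4, which passed with all 18 libraries, Jun and Klf10. Jun, a subunit of AP-1, stood at 21.7 to 26.2 CPM in WT and 15.3 to 19.3 in KO (-0.45 ± 0.14, adjusted p = 0.741, edgeR). Klf10, a factor induced by TGF-beta, stood at 11.7 to 13.1 and 7.61 to 9.74 CPM (-0.45 ± 0.14, adjusted p = 0.761).

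Trip4 and Csnk1g1, both with lower values in KO monosome RNA, are neighbours on chromosome 9. They point away from each other, with 129 bases between their starts in the table. This was seen after their values, and whether the 2 values share a source was not tested.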
